A study of Homo sapiens with 17 samples.

Results

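The HOX cluster genes examined here are 38 human homeobox genes that lie in 4 clusters, HOXA on chromosome 7, HOXB on chromosome 17, HOXC on chromosome 12 and HOXD on chromosome 2. A peak was counted with them when its summit lay within 50 kb of the gene's span in the RefSeq gene table of GRCh38, and 105 of the 208775 peaks in the 8 combined peak lists did so. The peaks come from ChIP-seq with a Flag antibody in U2OS, an established human osteosarcoma cell line, in which 1 transgene per line is switched on by doxycycline through a Tet-on construct. The 8 groups of stable lines carry Tet-on FOXA1, FOXA2 or FOXA3 in full length, each of these 3 factors without its C-terminal domain (dCTD in the labels, CTD-deleted below), Tet-on SOX2, or Tet-on SOX2FOXA2CTD, which is SOX2 with the C-terminal domain of FOXA2 (the fusion below). All 16 factor samples, 2 per group and called biological replicates in the titles, received doxycycline for 4 days, 500 ng/ml in the treatment labels (the extraction protocol writes 500 ng/ul), and an input sample was also described. Untreated cells of these lines are not analysed here, and the factors are induced transgenes read through a tag, so the peaks describe the introduced proteins and not the cell line's own FOXA or SOX proteins.

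HOX genes encode transcription factors that give cells their position along the body axis. Within a cluster the genes stand in the order in which they act: low-numbered paralogue groups, at the 3′ end, act towards the head, and high-numbered groups, at the 5′ end, act in the trunk, the limbs and the urogenital tract. Cells of one body position typically keep part of a cluster active and hold the rest under Polycomb proteins, which mark silent developmental genes through histone modification. FOXA proteins bind DNA through a forkhead domain and SOX2 through an HMG box, and both are known as pioneer factors, able to bind sites wrapped in nucleosomes. Histone marks and expression in U2OS are not analysed here, so the 2 ends of a cluster are told apart below by paralogue group and not by chromatin state.

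Each group is represented by a single list that combines both replicates, so no test between groups over replicates was possible, and the intervals below (95%, exact Poisson or binomial unless named otherwise) cover counting error over peaks only. The lists reach down to different limits of the irreproducible discovery rate (IDR, which grows as the ranks of a peak disagree between replicates), from 0.01 in the FOXA3 CTD-deleted list to 0.920 in the fusion list, so raw numbers of peaks are not compared between lists without the same ratio over all peaks beside them. The FOXA3 full length list shares 5012 identical rows with the FOXA3 CTD-deleted list, and both of its HOX peaks are among them: without these rows it has 0 HOX peaks, and it adds no independent information on the clusters. The windows of neighbouring HOX genes overlap, so 1 peak can serve many genes, and the 38 genes amount to 4 loci.

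Promoters under a peak summit are shown first, because they are the places where a gene's own start and a peak coincide. The RefSeq promoter table (GRCh38.p14, the 250 bases before each start are used) held 20 of the 38 genes with 26 distinct promoters. Of these 26, 5 were overlapped by a peak of at least 1 list, and 4 had a summit inside. Each is printed 5′ to 3′ in the direction of its gene, in lower case, with capitals marking every match of the forkhead letters TGTTTAC, of the forkhead variants written TATTTAC and also as TGTTTGC, and of the SOX letters ACAATG together with the variant ACAAAG, on either strand. The shared promoter of HOXC4 and HOXC5 lies at chr12:54016638-54016887 on the + strand and held summits of the FOXA2 full length, FOXA2 CTD-deleted and FOXA3 CTD-deleted lists.
HOXC4 and HOXC5: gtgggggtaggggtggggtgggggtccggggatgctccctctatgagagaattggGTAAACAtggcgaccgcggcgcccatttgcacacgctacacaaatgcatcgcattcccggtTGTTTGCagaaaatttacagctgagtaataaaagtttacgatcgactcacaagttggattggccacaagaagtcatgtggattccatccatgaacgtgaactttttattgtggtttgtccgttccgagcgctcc
The HOXA9 promoter lies at chr7:27165538-27165787 on the - strand and held summits of the FOXA2 CTD-deleted and fusion lists.
HOXA9: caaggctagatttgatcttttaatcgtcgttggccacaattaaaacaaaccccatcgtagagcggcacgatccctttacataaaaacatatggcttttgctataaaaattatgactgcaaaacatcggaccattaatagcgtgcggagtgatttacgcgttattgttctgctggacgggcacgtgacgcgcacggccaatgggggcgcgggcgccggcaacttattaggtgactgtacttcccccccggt
The HOXD8 promoter lies at chr2:176129455-176129704 on the + strand and held the summit of a fusion peak.
HOXD8: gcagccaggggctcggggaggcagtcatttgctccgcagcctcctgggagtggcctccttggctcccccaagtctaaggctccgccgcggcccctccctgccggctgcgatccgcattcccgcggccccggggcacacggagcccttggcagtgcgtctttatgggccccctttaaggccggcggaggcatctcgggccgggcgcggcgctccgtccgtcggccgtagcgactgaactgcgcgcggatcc
The HOXA11 promoter lies at chr7:27185233-27185482 on the - strand and held a summit of the FOXA2 full length list.
HOXA11: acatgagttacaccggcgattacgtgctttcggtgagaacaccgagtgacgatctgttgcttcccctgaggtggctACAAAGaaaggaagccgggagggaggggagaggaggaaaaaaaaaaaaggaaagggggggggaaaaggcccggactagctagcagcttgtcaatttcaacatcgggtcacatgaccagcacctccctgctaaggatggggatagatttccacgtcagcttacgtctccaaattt

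The promoter shared by HOXC4 and HOXC5 held 2 forkhead matches, the HOXA11 promoter held 1 SOX match, and the HOXA9 and HOXD8 promoters held no match of either kind in these 250 bases. Over all 26 HOX promoters 3 held a forkhead match, against 8.27% of all 35116 promoters in the table, and 2 held a SOX match, against 21.2% of all promoters. The median GC content was 58.8% in the HOX promoters and 58.0% in all promoters, and it differed widely among the 4 promoters shown, from 48.8% at HOXA9 to 72.4% at HOXD8. Ranked by the lower −log10 p of both replicates, the peaks at these 4 promoters were mostly in the weaker part of their lists. At HOXC4 and HOXC5 they stood in the upper 31.0% of FOXA2 full length, 96.7% of FOXA2 CTD-deleted and 94.1% of FOXA3 CTD-deleted. At HOXA9 it was 93.9% in FOXA2 CTD-deleted and 57.6% in the fusion. HOXA11 stood at 80.2% in FOXA2 full length and HOXD8 at 32.2% in the fusion. The other overlapped promoter, an inner start of HOXA3, lay under the edges of a FOXA1 full length and a FOXA2 full length peak, with no summit inside. Per list, 3 of the 26 HOX promoters were overlapped in FOXA2 full length (5.36% of all promoters), 2 in FOXA2 CTD-deleted (4.70%), 2 in the fusion (2.69%), 1 in FOXA1 full length (6.07%) and 1 in FOXA3 CTD-deleted (1.20%). FOXA1 CTD-deleted (1.69%), FOXA3 full length (0.974%) and SOX2 (0.0940%) overlapped 0 of the 26. Counts this small cannot be told from the share over all promoters in any one list.

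Nearly every HOX gene had a FOXA1 or FOXA2 peak within 50 kb. In the FOXA1 full length list 37 of the 38 genes had one, where 71.5% of all coding genes did. In FOXA1 CTD-deleted it was 38 of 38 (69.8% of coding genes), in FOXA2 full length 36 of 38 (74.2%) and in FOXA2 CTD-deleted 32 of 38 (76.1%). HOX genes are short, and coding genes of at most 10 kb had a peak less often, 59.5%, 56.2%, 63.4% and 64.8% in the same 4 lists. The sparser lists reached fewer genes: 14 in FOXA3 full length (24.2% of coding genes and 16.0% of those up to 10 kb), 21 in FOXA3 CTD-deleted (27.3%; 18.3%), 26 in the fusion (25.6%; 20.3% of those up to 10 kb) and 0 in SOX2 (0.891%; 0.636%). Since a few peaks serve many overlapping windows, these counts describe 4 loci: the 26 genes of the fusion list rest on 4 peaks, and the 21 genes of FOXA3 CTD-deleted on 3.

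**Figure D1:**
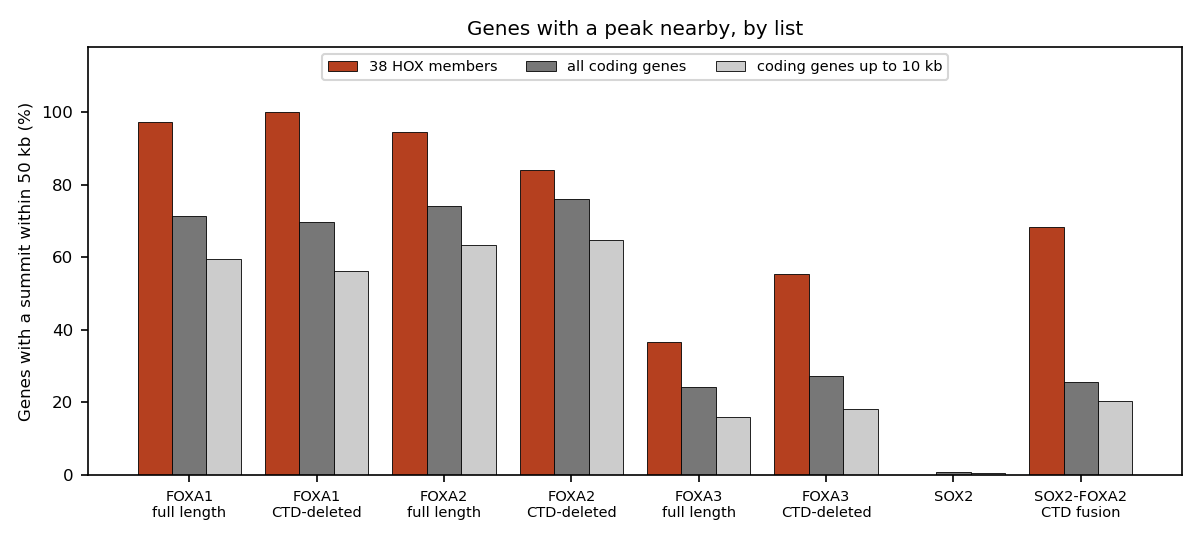
Share of genes with a peak summit within 50 kb (y axis, percent) in each of the 8 lists (x axis), for the 38 HOX genes, all coding genes and coding genes of at most 10 kb. The HOX bars stand at 84.2% or more for every FOXA1 and FOXA2 protein, and at 0 in SOX2.

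The number of lists reaching a gene followed its cluster and its place in it. The same count was not made over all coding genes, so these numbers are not set against a background. They include FOXA3 full length, whose HOX peaks are identical rows of FOXA3 CTD-deleted, so genes near those peaks count the same rows in both lists. HOXA3, HOXA4, HOXA5, HOXA6, HOXA7 and HOXA9 had a summit within 50 kb in 7 of the 8 lists, all but SOX2. These include HOXA3, known for the pharyngeal arches and the thymus, HOXA5, known for lung development, and HOXA9, known for blood stem cells and leukaemia. Another 15 genes were reached in 6 lists: HOXA2, HOXB3, HOXB4, HOXB5, HOXB6, HOXB7, HOXB8, HOXB9, HOXC4, HOXC5, HOXC6, HOXC8, HOXC9, HOXC10 and HOXC11. In 5 lists were 8 genes, HOXA10, HOXA11, HOXA13, HOXC12, HOXC13, HOXD3, HOXD4 and HOXD8. In 4 lists were 6 genes, HOXB2, HOXD9, HOXD10, HOXD11, HOXD12 and HOXD13, the last of which patterns the digits. HOXB1, which sets identity in the hindbrain, and HOXD1 were reached in 3 lists. HOXB13, a regulator of the prostate that stands far from the rest of its cluster, was reached in 2, both of them FOXA1.

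Of the 105 HOX summits, 44 lay inside a HOX gene, 39 between the genes of a cluster and 22 in the flanks. FOXA1 full length had 13 of 24 inside a HOX gene, FOXA1 CTD-deleted 5 of 14, FOXA2 full length 13 of 30, FOXA2 CTD-deleted 11 of 28 and the fusion 0 of 4. Counted by gene, a summit inside the gene's own span was found in at least 1 list for 14 genes and in 0 lists for the other 24. FOXA1 full length had a summit inside 9 HOX genes, FOXA1 CTD-deleted inside 4, FOXA2 full length inside 12 and FOXA2 CTD-deleted inside 8. Over all coding genes a summit inside was found for 32.8%, 34.1%, 37.3% and 37.2% in these lists, and over coding genes of at most 10 kb for 4.95%, 4.01%, 8.01% and 6.06%. Both FOXA3 lists had a summit inside HOXA3 alone, where 9.06% and 10.3% of coding genes and 0.495% and 0.566% of those up to 10 kb did. The fusion (9.40%; 2.00%) and SOX2 (0.270%; 0.0530%) had a summit inside 0. HOXA3, whose annotated span of 45574 bp runs across its neighbours HOXA4, HOXA5 and HOXA6, held the most, 16 peaks from 6 lists. HOXB3 and HOXC10 held summits of 4 lists each, HOXA13 of 3, and HOXC4, HOXC5 and HOXC6, which share their first start, of 3 each.

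**Figure D2:**
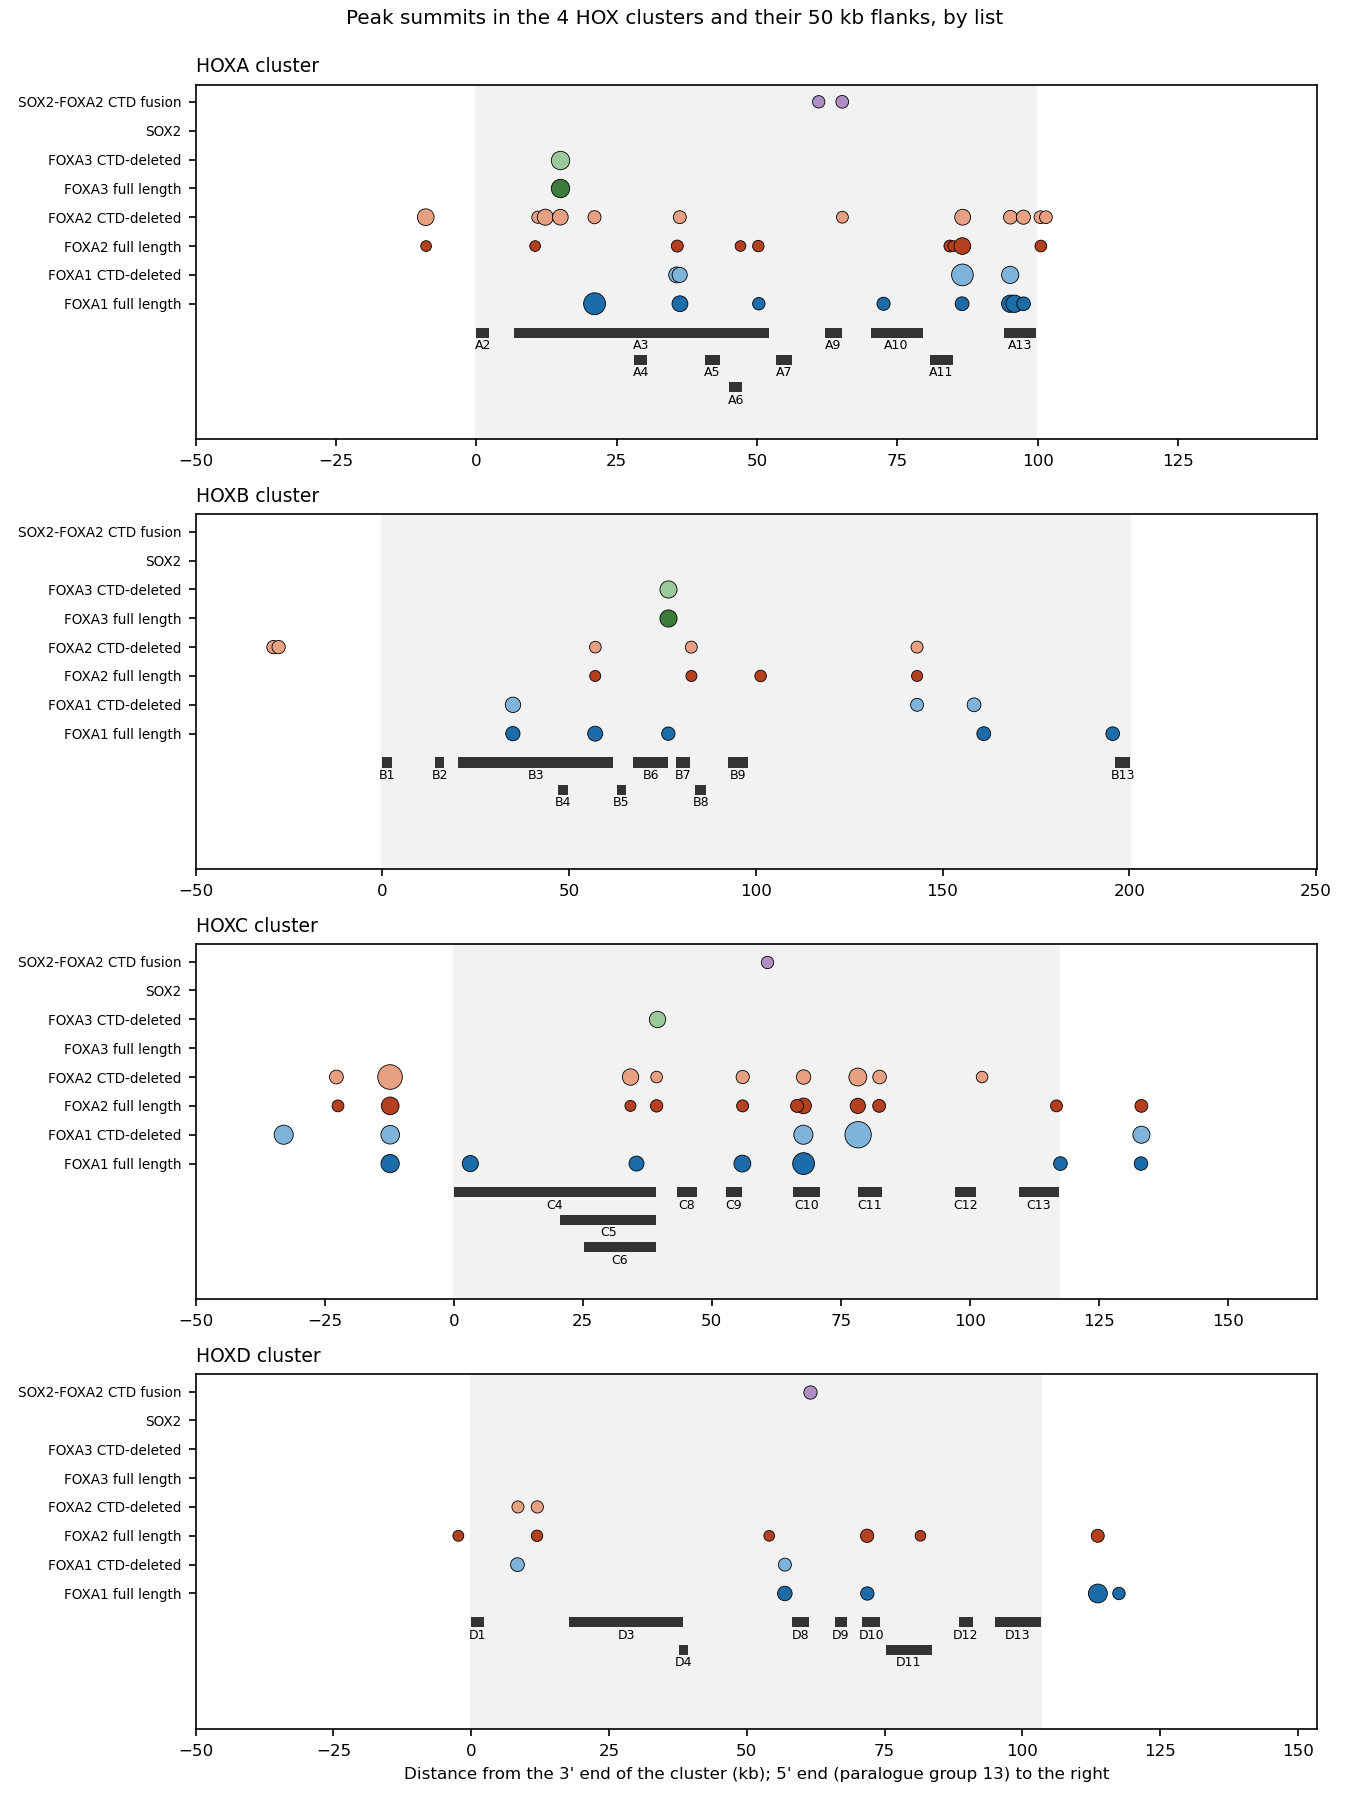
Position of every HOX peak summit (x axis, distance in kb from the 3′ end of the cluster) in each list (y axis), with larger circles for a higher strength, the cluster body shaded and the genes as black bars. Some summits of FOXA1 and FOXA2 lists recur at the same places. The HOXB stretch between HOXB9 and HOXB13 is thinly filled, and the SOX2 row has no circle.

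HOXA was the most densely filled cluster. Its body, from the first to the last of its genes, spans 99.7 kb and held 32 of the 83 peaks found in the 4 bodies over all lists. HOXC held 23 in 117.2 kb, HOXB 17 in 200.2 kb and HOXD 11 in 103.4 kb. In FOXA1 full length the HOXA body reached 80.2 peaks per Mb (34.6 to 158.0) and the HOXD body 19.3 (2.34 to 69.9). In FOXA2 CTD-deleted the 2 values were 90.2 (41.3 to 171.3) and 19.3 (2.34 to 69.9). HOXA stood above HOXD in all 4 lists of FOXA1 and FOXA2, but the counting intervals overlapped in both lists named.

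Against the whole genome, HOX windows carried about double the peak density in both full length lists, and a density near the genome's in FOXA1 CTD-deleted. The 4 windows together cover 0.921 Mb. FOXA1 full length had 24 HOX peaks, or 26.1 per Mb, which is 2.12 times its genome-wide density (1.36 to 3.16). FOXA1 CTD-deleted had 14 peaks and 15.2 per Mb, a ratio of 0.920 (0.503 to 1.54). FOXA2 full length had 30 peaks, 32.6 per Mb and a ratio of 2.21 (1.49 to 3.16), and FOXA2 CTD-deleted 28 peaks, 30.4 per Mb and a ratio of 1.74 (1.16 to 2.52). The intervals of these 3 lists lay above 1. The ratios of FOXA3 full length (1.08, 0.131 to 3.91), FOXA3 CTD-deleted (1.46, 0.301 to 4.27) and the fusion (1.68, 0.457 to 4.30) rest on 2, 3 and 4 peaks and cannot be told from 1. Set against 1 Mb on either side of the windows in place of the genome, the ratios were 1.68 in FOXA1 full length, 0.845 in FOXA1 CTD-deleted, 1.61 in FOXA2 full length and 1.28 in FOXA2 CTD-deleted.

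**Figure D3:**
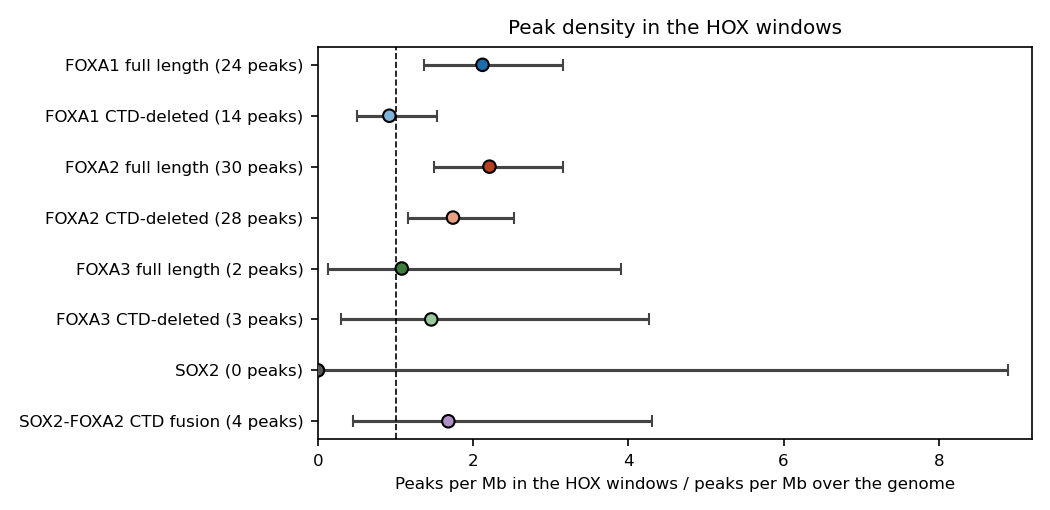
Peak density in the HOX windows divided by the density over the genome (x axis, linear) for each list (y axis, with its number of HOX peaks); bars are 95% exact Poisson intervals and the dashed line marks a ratio of 1. The FOXA1 full length point stands at 2.12 and the FOXA1 CTD-deleted point at 0.920, and the SOX2 interval, from 0 peaks, spans most of the axis.

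In the lists as deposited, the cluster bodies were denser in peaks than their 50 kb flanks. Of the 105 peaks, 83 were in the bodies (0.521 Mb in all) and 22 in the flanks. FOXA1 full length had 19 body and 5 flank peaks, 36.5 and 12.5 per Mb, a ratio of 2.92 (1.05 to 10.0). FOXA2 full length had 23 and 7, 44.2 and 17.5 per Mb, a ratio of 2.52 (1.05 to 6.97). FOXA1 CTD-deleted, with 11 and 3, had a ratio of 2.82 (0.744 to 15.7), and FOXA2 CTD-deleted, with 21 and 7, a ratio of 2.31 (0.944 to 6.42). The intervals of both CTD-deleted lists reach below 1, and the 4 ratios overlap widely, so a difference between full length and CTD-deleted proteins was not detectable in this measure. At an IDR of at most 0.01 the ratio was 1.54 in FOXA1 full length and 1.28 in FOXA1 CTD-deleted, and it turned to 0.768 in FOXA2 CTD-deleted. All 2, 3 and 4 HOX peaks of FOXA3 full length, FOXA3 CTD-deleted and the fusion were in the bodies. The flanks themselves were uneven, with 11 peaks beside HOXC, 5 beside HOXA, 4 beside HOXD and 2 beside HOXB.

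Along the clusters, no end was clearly preferred. Peaks were assigned to the paralogue group of the nearest gene, and the windows split into 379.4 kb for groups 1 to 4, 83 kb for groups 5 to 8 and 458.4 kb for groups 9 to 13. FOXA1 full length had 7, 3 and 14 peaks in these stretches, or 18.5 (7.42 to 38), 36.1 (7.45 to 105.6) and 30.5 (16.7 to 51.2) per Mb. FOXA2 full length had 9, 5 and 16, or 23.7 (10.8 to 45), 60.2 (19.6 to 140.6) and 34.9 (20.0 to 56.7) per Mb. In both, the 5′ stretch was denser than the 3′ stretch by less than the counting error. FOXA1 CTD-deleted was level, with 6 and 7 peaks and 15.8 (5.80 to 34.4) against 15.3 (6.14 to 31.5) per Mb at the 3′ and 5′ ends. FOXA2 CTD-deleted had the order turned, with 13 and 12 peaks and 34.3 (18.2 to 58.6) against 26.2 (13.5 to 45.7) per Mb, again within the counting error. The stretches of groups 1 to 4 and 9 to 13 include the flanks, which are poorer in peaks. Within the bodies alone the 3′ and 5′ values were 33.4 and 38.7 per Mb in FOXA1 full length, 22.3 and 23.2 in FOXA1 CTD-deleted, 27.9 and 50.3 in FOXA2 full length and 44.6 and 38.7 in FOXA2 CTD-deleted.

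**Figure D4:**
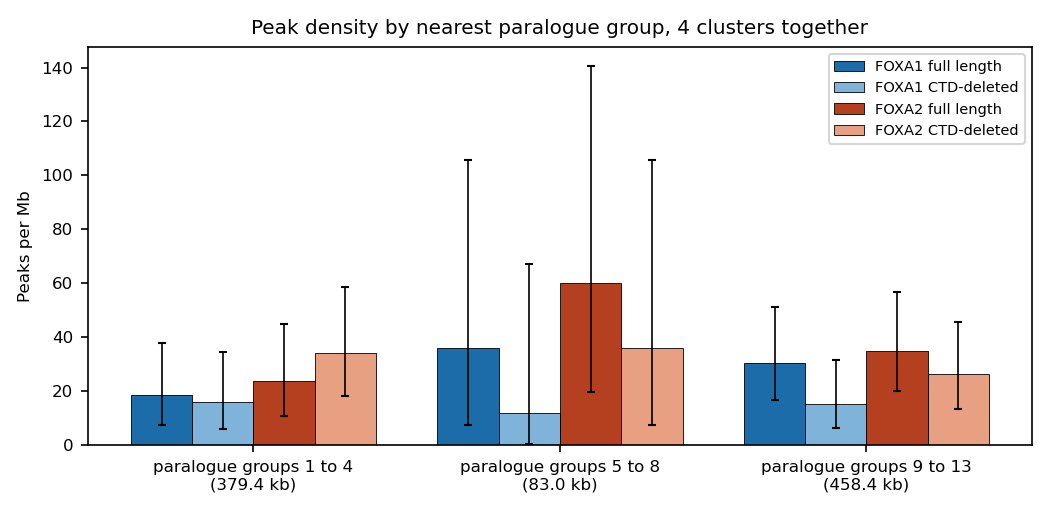
Peaks per Mb (y axis) for summits nearest to paralogue groups 1 to 4, 5 to 8 and 9 to 13 (x axis, with the length of each stretch) in the 4 FOXA1 and FOXA2 lists; bars are values over the 4 clusters together and error bars 95% exact Poisson intervals. At the 3′ end the FOXA2 CTD-deleted bar is the tallest, at 34.3, and at the 5′ end the FOXA2 full length bar, at 34.9, with overlapping intervals.

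The 5′ end of HOXD, singled out after its counts were seen, had the same raw counts in both FOXA pairs. Around HOXD9 to HOXD13, genes of the limbs and the urogenital tract, FOXA1 full length and FOXA2 full length each had 3 peaks, while FOXA1 CTD-deleted and FOXA2 CTD-deleted each had 0. In this 89.9 kb stretch 3 peaks make 33.4 per Mb (6.88 to 97.5), and a count of 0 has an interval up to 41.0, so the counts of a single pair overlap within counting error. All peaks grew 1.35 times from full length to CTD-deleted in FOXA1 and 1.18 times in FOXA2. The flank beyond HOXD13 held 2 of the FOXA1 full length peaks and 1 of the FOXA2 full length peaks. At the stricter IDR limit of each pair (0.0501 and 0.250), FOXA1 full length kept only its peak about 10 kb beyond HOXD13. FOXA2 full length lost its peak within HOXD11. At the strongest site of the stretch, chr2:176076886-176077797 in the 5′ flank about 10 kb beyond HOXD13, FOXA1 full length had −log10 p values of 7.81 and 10.2 in its 2 replicates and FOXA2 full length 3.02 and 4.99. The FOXA1 full length peak was 3281st of 37532 by strength, which is the lower of both values, and the FOXA2 full length peak 10000th of 45076. The replicate columns carry no replicate number, and p-values depend on depth, which is unknown, so ranks within a list are given beside them.

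The other 2 HOXD sites given in full were weaker. At chr2:176133298-176134349, about 1.3 kb from HOXD8, FOXA1 full length had −log10 p values of 4.08 and 8.03 and FOXA1 CTD-deleted 2.96 and 5.08. At chr2:176182226-176182852, inside the long non-coding RNA gene HAGLR and 6.1 to 6.2 kb from HOXD1, FOXA1 CTD-deleted had 3.53 and 7.38 and FOXA2 CTD-deleted 3.57 and 2.36. Of the 4 FOXA1 and FOXA2 lists, the former site was in both FOXA1 lists and the latter in both CTD-deleted lists. No HOXD site was held by more than 2 lists.

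Some peaks of different lists overlapped. The split below was not made over the whole genome, and the sharing between lists is set beside that of all peaks further on. Sites held by both FOXA3 lists count identical rows as 2 lists. Merging overlapping peaks gave 55 sites over the 4 windows, of which 24 were in 1 list, 18 in 2, 9 in 3 and 4 in 4 lists, and 0 in more than 4. All 4 of the sites in 4 lists were held by both FOXA1 and both FOXA2 lists, and 2 of them are in HOXA and 2 in HOXC. These sites are described next, with the values of both replicates.

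In HOXA, the site nearest to HOXA11, a gene of the forearm and the uterus, lies at chr7:27186617-27187719 inside the antisense gene HOXA11-AS, about 1.7 kb from HOXA11. Its −log10 p values were 12.7 and 3.57 in FOXA1 full length, 10.7 and 27.7 in FOXA1 CTD-deleted, 5.77 and 9.01 in FOXA2 full length, and 5.08 and 18.3 in FOXA2 CTD-deleted. It ranked 2652nd of 50539 in FOXA1 CTD-deleted and 2181st of 45076 in FOXA2 full length, within the upper 5.25% and 4.84%. In FOXA1 full length it ranked only 22469th of 37532, since 1 of the replicates was low. The other common HOXA site, chr7:27135464-27136913 within the HOXA3 span, had 5.08 and 9.05 in FOXA1 full length, 2.34 and 2.34 in FOXA2 full length, and 5.35 and 2.96 in FOXA2 CTD-deleted. FOXA1 CTD-deleted had 2 adjoining peaks there, with 5.92 and 5.08 and with 4.53 and 5.69. This was a middling site, between the upper 28.2% and 48.0% of each list.

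Also within the HOXA3 span, chr7:27115022-27115793 was held by FOXA2 CTD-deleted, with 4.95 and 8.43, and by both FOXA3 lists, with the identical values 7.38 and 16.2. FOXA1 lists and FOXA2 full length had no peak there. It is 1 of 2 HOX sites in the FOXA3 full length list, and both belong to the rows that list shares with FOXA3 CTD-deleted.

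HOXB held 3 sites in 3 lists. At chr17:48604861-48605645, inside HOXB-AS3 and 117 to 136 bp outside the HOXB6 span on its HOXB7 side, FOXA1 full length had 3.23 and 8.33, and both FOXA3 lists had 6.19 and 9.08. At chr17:48585162-48585765, within HOXB3, FOXA1 full length had 4.39 and 7.35, FOXA2 full length 1.76 and 1.91, and FOXA2 CTD-deleted 2.14 and 3.12. At chr17:48671168-48672237, inside LINC02086 in the long stretch between HOXB9 and HOXB13, FOXA1 CTD-deleted had 2.96 and 10.3, FOXA2 full length 4.33 and 1.78, and FOXA2 CTD-deleted 2.34 and 5.86. All 3 were middling or weak, with FOXA1 and FOXA2 peaks between the upper 39.4% and 96.7% of their lists.

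HOXC held the strongest of the common sites. In its 3′ flank, chr12:54067781-54068970 lies inside the non-coding gene FLJ12825, about 12 kb beyond HOXC4, a gene also active in lymphoid cells. Its −log10 p values were 21.9 and 7.22 in FOXA1 full length, 7.53 and 23.1 in FOXA1 CTD-deleted, 10.3 and 6.68 in FOXA2 full length, and 14.2 and 21.9 in FOXA2 CTD-deleted. It ranked 462nd of 53415 in FOXA2 CTD-deleted and 1301st of 45076 in FOXA2 full length, the highest place of any HOX peak in both lists. In the 2 FOXA1 lists it stood in the upper 11.6% and 13%.

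HOXC10 and HOXC11, both active in the lower spine and hindlimb, each had a strong site. At chr12:53987021-53988602, within HOXC10, the values were 12.5 and 10.8 in FOXA1 full length, 8.00 and 18.8 in FOXA1 CTD-deleted, 5.63 and 4.99 in FOXA2 full length, and 6.19 and 3.96 in FOXA2 CTD-deleted. It ranked 1115th of 37532 in FOXA1 full length. At chr12:53977067-53978348, 46 to 105 bp beyond the end of HOXC11, FOXA1 CTD-deleted had 16.4 and 26.1 and ranked 511th of 50539. FOXA2 full length had 4.61 and 6.77 there, and FOXA2 CTD-deleted 6.91 and 6.85. FOXA1 full length had no peak at this HOXC11 site, although it was the highest-ranked HOX peak of its CTD-deleted partner.

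**Figure D5:**
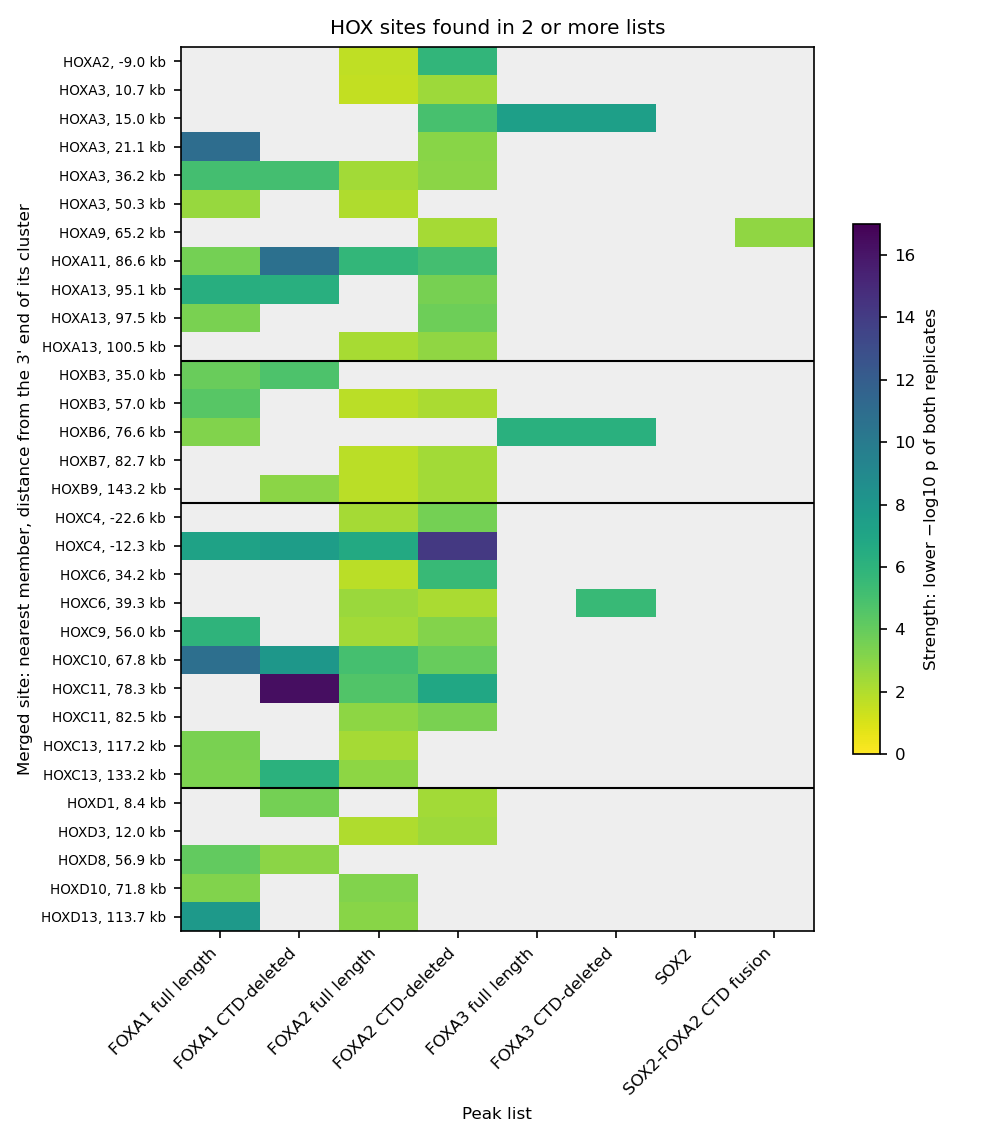
Strength, the lower −log10 p of both replicates (colour), of the 31 merged HOX sites held by 2 or more lists (rows, named by nearest gene and distance from the 3′ end of the cluster) in the 8 lists (columns); grey marks no peak and black lines separate the clusters. The HOXC site at -12.3 kb and the HOXC10 site are filled in all 4 FOXA1 and FOXA2 columns, and the HOXC11 site at 78.3 kb is darkest in FOXA1 CTD-deleted and grey in FOXA1 full length.

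Relative to the rest of the genome, FOXA1 without its C-terminal domain had fewer HOX peaks than full length FOXA1. The list grew 1.35 times over chromosomes 1 to 22 and X, from 37219 to 50105 peaks, while its HOX peaks went from 24 to 14, a ratio of 0.583 (0.279 to 1.17). The HOX ratio was 0.433 times the ratio of all peaks (0.207 to 0.872), an interval that lies below 1 but covers counting error only. In each cluster the CTD-deleted list had fewer, with 8 and 4 peaks in HOXA, 5 and 3 in HOXB, 7 and 5 in HOXC and 4 and 2 in HOXD. Over all peaks, a larger share of the full length list lay within 1 kb of a coding gene's end. It was 5.73%, against 2.45% in the CTD-deleted list, and the part of this in the HOX count was not tested. The mean number of peaks in the 50 kb window of a gene was 0.516 times as high in the CTD-deleted list for HOX genes, 0.926 times for coding genes of at most 10 kb and 1.13 times for all coding genes. The 2 lists end at IDR limits of 0.200 and 0.0501. With the stricter limit applied to both, the HOX counts were 9 and 14, so the raw count turned, and all peaks grew 4.38 times, which leaves a HOX ratio 0.355 times that of all peaks (0.143 to 0.931). At an IDR of at most 0.01, with 3 and 8 HOX peaks, it was 0.341 times (0.0819 to 2.00), an interval that spans 1.

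For FOXA2 a difference from the genome was not detectable. Its HOX peaks went from 30 to 28, a ratio of 0.933 (0.537 to 1.62), where all peaks grew 1.18 times, so the HOX ratio was 0.788 times the overall one (0.454 to 1.36). By cluster the numbers were 9 and 12 in HOXA, 4 and 5 in HOXB, 11 and 9 in HOXC, and 6 and 2 in HOXD. Whether the 2 factors differ in this respect was not tested, and their intervals overlap.

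Each pair shared part of its HOX sites. In FOXA1, 9 of the 24 full length HOX peaks, 37.5% (Wilson interval 21.2 to 57.3), overlapped a CTD-deleted peak by at least 1 bp, against 56.0% of all full length peaks. Conversely 9 of the 14 CTD-deleted HOX peaks, 64.3% (38.8 to 83.7), overlapped a full length peak, against 41.7% of all. Both overall shares lay inside the HOX intervals. In FOXA2 the shares were 17 of 30, 56.7% (39.2 to 72.6; 51.3% over all peaks), and 17 of 28, 60.7% (42.4 to 76.4; 43.2% over all peaks). FOXA1 and FOXA2 full length shared 11 HOX peaks, 45.8% of those of FOXA1 and 36.7% of those of FOXA2, against 47.2% and 39.5% over all peaks. The CTD-deleted proteins shared 9 of the 14 HOX peaks of FOXA1, 64.3% (38.8 to 83.7; 45.7% over all peaks), and 8 of the 28 of FOXA2, 28.6% (15.3 to 47.1; 43.4% over all peaks), with both overall shares inside the intervals.

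The strongest peaks that the partner list lacked lay at HOXA3 in 2 lists and at HOXC11, HOXD10, HOXD8 and the HOXC4 to HOXC6 start in the others. For FOXA1 full length it was chr7:27120751-27121789, within the HOXA3 span, with −log10 p values of 10.9 and 11.1 and rank 1075 of 37532, the highest-ranked HOX peak of that list. For FOXA1 CTD-deleted it was the HOXC11 site above. Each FOXA1 protein thus had its top HOX peak at a place where the other had none listed. For FOXA2 full length the strongest unshared peak was chr2:176118842-176119276, within HOXD10, with 3.84 and 3.23, and for FOXA2 CTD-deleted chr7:27112355-27113070, within HOXA3, with 5.27 and 5.80. These FOXA2 peaks stood at rank 9008 of 45076 and 7628 of 53415, the upper 20.0% and 14.3%, lower in their lists than the FOXA1 peaks at 2.86% and 1.01%. FOXA3 CTD-deleted had 1 HOX peak its partner lacked, chr12:54016488-54016862 at the common start of HOXC4, HOXC5 and HOXC6, whose promoter is printed above, with 5.55 and 13.4 and rank 6409 of 6813.

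SOX2 had 0 HOX peaks among 1375 and SOX2 joined to the FOXA2 C-terminal domain had 4 among 7895. With so short a list SOX2 has a HOX density ratio of 0 with an interval up to 8.89, so an absence from the clusters was not detectable. The 4 fusion peaks lie near HOXA9 (2 peaks), HOXC9 and HOXD8, that is in paralogue groups 8 and 9. The peak at the HOXA9 promoter, chr7:27165246-27166065, had −log10 p values of 3.38 and 2.80. The peak about 1.1 kb beyond the other end of HOXA9, chr7:27161017-27161583, had 4.56 and 2.57. The peak at chr12:53994982-53995903, inside HOXC-AS2 and 4.7 kb from HOXC9, had 4.04 and 2.57, and the peak at the HOXD8 promoter, chr2:176129313-176129901, had 3.20 and 4.27. The HOXD8 peak was the strongest of them, 2543rd of 7895, and the other 3 were in the weaker part of the list. The fusion list reaches an IDR of 0.920, and 0 of the 4 peaks pass an IDR of 0.01.

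The separate list of the fusion's first replicate, which is part of the combined list and no independent check on it, holds 42705 peaks. It had 13 HOX peaks, 9 of them absent from the combined list, among them summits inside HOXA5, HOXA11, HOXB9, HOXC9 and HOXC13. The fold enrichment of the 13 over local background, as the authors' caller gave it, ran from 2.16 to 3.92 with a median of 3.01, where the median of the whole list was 3.06. The HOX density of this list was 1.01 times that of the genome (0.539 to 1.73). The first-replicate list of SOX2, with 13977 peaks, had 1 HOX peak, within HOXA3 at a fold enrichment of 2.82, and a density ratio of 0.239 (0.00604 to 1.33). Neither interval lay above 1, so an excess of HOX peaks over the genome was not detectable in these longer lists.

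HOX peaks are set here beside all peaks of their lists in strength and in distance from gene ends. The median strength was 3.98 for HOX peaks and 4.08 for all peaks in FOXA1 full length, 5.62 and 4.34 in FOXA1 CTD-deleted, 2.24 and 2.24 in FOXA2 full length, and 3.16 and 2.96 in FOXA2 CTD-deleted. In the sparser lists the HOX medians were lower, 6.79 and 7.90 in FOXA3 full length, 6.19 and 7.75 in FOXA3 CTD-deleted, and 2.69 and 2.98 in the fusion, with 0 HOX peaks in the strongest 25% of each. In FOXA1 CTD-deleted 7 of 14 HOX peaks were in the strongest 25% of the list, in FOXA1 full length 7 of 24, in FOXA2 full length 6 of 30 and in FOXA2 CTD-deleted 7 of 28. HOX summits within 1 kb of the end of any coding gene, HOX or other, made up 13 of 30 in FOXA2 full length, 43.3% (Wilson interval 27.4 to 60.8), where 5.50% of all peaks lay that near. The share was 25% (12 to 44.9; 5.73% overall) in FOXA1 full length, 25% (12.7 to 43.4; 4.32% overall) in FOXA2 CTD-deleted and 7.14% (1.27 to 31.5; 2.45% overall) in FOXA1 CTD-deleted. HOX genes stand closer together than most genes, so a summit anywhere in a cluster is more often near a gene's end, and the share that this accounts for was not tested.

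HOX cofactor genes, other homeobox genes, developmental regulators of other families and Polycomb subunit genes were set beside all coding genes, as plain counts over short gene lists. Of 9 genes for HOX cofactors, homeodomain proteins that bind DNA together with HOX proteins, 5 had a summit within 50 kb in each FOXA1 and FOXA2 list and 0 in the other lists. MEIS1, PBX3 and PKNOX2, all long genes, had 19, 19 and 11 peaks over the 4 lists. Of 32 homeobox genes outside the clusters, 16 had one in FOXA1 full length, 20 in FOXA1 CTD-deleted, 21 in FOXA2 full length, 20 in FOXA2 CTD-deleted, 6 in FOXA3 full length, 7 in FOXA3 CTD-deleted and 2 in the fusion. Examples are GSX2, MEOX2, EVX1 and GBX2, which were reached in 6 or 7 lists. EVX1 and EVX2 of this set also neighbour the clusters, so their windows overlap those of HOX genes and their counts are not independent. Of 22 developmental regulators of other families that Polycomb commonly covers, such as TBX5, TBX3, TBX15 and IRX3, 18 or 19 had one in each list of FOXA1 and FOXA2 (81.8% to 86.4%), 3 in each FOXA3 list and 4 in the fusion. Of 20 genes for Polycomb subunits, which include JARID2, PHC1, PHC2 and CBX8, 14 to 16 had one in each list of FOXA1 and FOXA2, 7 in each FOXA3 list and 8 in the fusion. SOX2 reached 0 genes of these 4 lists. Set beside the 69.8% to 76.1% of all coding genes in the FOXA1 and FOXA2 lists, the cofactors (55.6%, 5 of 9 genes) and the other homeobox genes (50.0% to 65.6%) were below the background, the Polycomb subunits near it and the developmental regulators somewhat above it, with medians of 0.500 to 3.00 peaks per gene where all coding genes had 1 or 2. Many of the other homeobox genes are short, however. Their shares were 50.0% and 62.5% in FOXA1 full length and CTD-deleted, where coding genes of at most 10 kb had 59.5% and 56.2%. In FOXA2 full length and CTD-deleted they were 65.6% and 62.5%, where the short genes had 63.4% and 64.8%. Against short genes they were thus below in some lists and above in others. In the FOXA3 full length, FOXA3 CTD-deleted and fusion lists, beside 24.2%, 27.3% and 25.6% of all coding genes, the developmental regulators stood at 13.6%, 13.6% and 18.2%, the other homeobox genes at 18.8%, 21.9% and 6.25%, the cofactors at 0 and the Polycomb subunits at 35%, 35% and 40.0%.

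Genes listed as neighbours of the clusters were also described by counts, with no test of a difference between lists. Of 13 flanking genes, among them SKAP2 beside HOXA, SKAP1 beside HOXB and CBX5 beside HOXC, 13 had a summit within 50 kb in FOXA1 full length and 8 in FOXA1 CTD-deleted, with 12 in FOXA2 full length and 11 in FOXA2 CTD-deleted, beside 71.5%, 69.8%, 74.2% and 76.1% of all coding genes. The median number of peaks per flanking gene was 3.00, 2.00, 2.00 and 4.00 in these lists. CBX5, which encodes the heterochromatin protein HP1 alpha, had 3 peaks in FOXA1 full length, 0 in FOXA1 CTD-deleted, 2 in FOXA2 full length and 5 in FOXA2 CTD-deleted. SKAP2 had 14, 11, 15 and 16 peaks, SKAP1 had 6, 8, 6 and 5, and HIBADH, a metabolic enzyme gene, had 6, 10, 9 and 11. From FOXA1 full length to FOXA1 CTD-deleted the number fell for 8 of the 13 genes, rose for 3 and was equal for 2. From FOXA2 full length to FOXA2 CTD-deleted the number fell for 3, rose for 7 and was equal for 3. The same split was not made over all coding genes, and the lists of each pair end at different IDR limits. Over all coding genes, the mean number of peaks in the 50 kb window was 1.13 times as high in FOXA1 CTD-deleted as in its partner. For FOXA2 CTD-deleted it was 1.12 times as high. The windows of some flanking genes overlap those of the clusters, so these counts are not independent of the HOX counts.

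Some HOX peaks lay inside non-coding genes. Of 33 long non-coding RNA genes in the windows, 16 held a summit in at least 1 list, where 35.3% of all such genes did, and 10 in at least 2, where 24.5% did. Their median length was 4.29 kb, against 9.08 kb for all. Among the 33, HOXA11-AS and LINC02086 held summits of both FOXA1 and both FOXA2 lists, and HAGLR, HOXB-AS3 and LOC124902939 of 3 lists each. The counts leave out FLJ12825 in the 3′ flank of HOXC, which also held summits of both FOXA1 and both FOXA2 lists. HOTAIR, the HOXC transcript studied for its links to Polycomb, held 1 summit in FOXA2 full length and 1 in FOXA2 CTD-deleted, and 0 in the other lists. HOTTIP, transcribed from the 5′ tip of HOXA, held 1 in FOXA2 full length and 2 in FOXA2 CTD-deleted. HOTAIRM1, at the 3′ end of HOXA, held 0 in every list. The files give no strand for a peak, so a summit inside an antisense gene and its HOX partner belongs to both.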

How the data were processed

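Peaks were listed by the authors, and reads were not used here, so depth is unknown. The submitters' processing notes name Bowtie2 2.4.4, SAMtools 0.1.18, MACS2, FastQC 0.10.1, Trim Galore, deepTools 2.4.1 and hg38, without their settings. The deposited combined lists, 1 per group from 2 replicates, give a score derived from the IDR, a summit offset, and the −log10 p of each replicate, while the deposited first-replicate lists of SOX2 and the fusion give a fold enrichment (a ratio) and −log10 values. Every such value is the authors' own. Strength is the lower −log10 p of both replicates.

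Summits were assigned to RefSeq GRCh38.p14 spans on chromosomes 1 to 22 and X with Python 3.11.15, pandas 2.3.3 and scipy 1.17.1, and the scripts were tested on simulated data. Where spans overlap, the shortest counted as nearest. The genome density is over 3029.8 Mb. Peaks overlapping by at least 1 bp were shared or merged. Named in full are, per cluster, the 3 merged sites in most lists (ties by strength), and per list of a pair its strongest unshared peak. Motifs around summits were planned, but no genome was used here, so promoters stand in for them. The 38 genes and all gene lists were chosen with earlier results of these data known. Alternatives were another window (10 or 100 kb), an IDR of at most 0.01, a reciprocal overlap of 50%, equal list sizes, merged peaks and another background.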

Additional observations from a re-analysis of the deposited data

How the results depend on the processing

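Of 117 alternative values for 40 results, 89 were judged unmoved and 28 moved. Some results were judged by the counting error and others by a change of 1.5 times. Some density ratios and shares of coding genes that changed by less than 1.5 times are thus among the 28. Others that rest on few peaks changed more and are among the 89. The body-to-flank ratio of FOXA1 CTD-deleted was 2.82, and 1.28 at an IDR of at most 0.01. The density ratio of the fusion was 1.68, and 2.96 with a 10 kb window. A ratio passed to the other side of 1 in the density of FOXA1 CTD-deleted with a 10 kb window (1.04), of FOXA3 full length against 1 Mb on either side (0.828), and in the FOXA3 full length, fusion and FOXA2 CTD-deleted values named below. With a 10 kb window the HOX genes with a peak were 14 in FOXA1 CTD-deleted, 4 in FOXA3 full length, 8 in FOXA3 CTD-deleted and 9 in the fusion, and the density ratio was 3.25 in FOXA2 full length and 2.52 in FOXA2 CTD-deleted. At an IDR of at most 0.01, which leaves fewer peaks by construction, the genes were 17 in FOXA1 full length, 18 in FOXA1 CTD-deleted, 19 in FOXA2 CTD-deleted and 0 in the fusion, whose density ratio was then 0. At that limit the body-to-flank ratio of FOXA2 CTD-deleted was 0.768, below 1, and the shared share was 66.7% in FOXA1 full length and 25% in FOXA1 CTD-deleted. The FOXA2 full length list has no peak at that limit, so no value could be computed there or for the sharing of its pair. With 50% reciprocal overlap the shared shares of the FOXA1 lists were 16.7% and 28.6%. Without the rows it shares with FOXA3 CTD-deleted, FOXA3 full length had 0 genes and a density ratio of 0. With the longer list of each pair held to the length of its partner, strongest peaks first, the fusion had 0 genes. Beyond the construction of each setting, the cause was not tested. Leaving out the second replicate was possible for SOX2 and the fusion only: SOX2 then had 9 genes (30.8% of coding genes) and a density ratio of 0.239, and the fusion 35 genes (67.0%) and 1.01. The density without long gene-free stretches, and the FOXA1 and FOXA2 pair ratios at a common limit, were added after seeing the data. The share of coding genes of at most 10 kb moved from that of all coding genes in all 8 lists, and both are given with the gene counts. No paired analysis was possible because each group has 1 combined list and its replicate columns carry no number.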

Other observations

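The windows hold 8 microRNA hairpins, MIR196B, MIR10A, MIR196A1, MIR3185, MIR196A2, MIR615, MIR10B and MIR7704. A peak of the combined lists overlapped 0 of the 8, and 78 of all 1558 hairpins, 5.01%, so a count of 0 does not set them apart. The nearest summit was 298 bp from MIR3185, in FOXA1 full length, and the next nearest 2214 bp from MIR196A2, in FOXA2 full length. MIR10B was the farthest, at 13464 bp.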
